A study of Mus musculus with 24 samples.

Results

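The complement genes examined here are C3, Cfb, Hc, C6, C7, C8a, C8b, C8g and C9, which is 9 of the 22350 protein-coding genes annotated on the mouse autosomes and X. They were chosen by name, and each was given a window of its gene body plus 10 kb on each side. H3K27ac, the acetylation of histone H3 at lysine 27 that marks active promoters and enhancers, was mapped by ChIP-seq in whole liver of male and female mice of the strains C57BL/6J, called B6, and CAST/EiJ, called CAST, all labelled as 8 weeks old and with no treatment named. The series has 5 livers in each of the groups B6 male, B6 female, CAST male and CAST female, and 1 input library per group. The measurements are 4 lists of peaks, each made from the pooled livers of a group, so no spread between animals can be given, no test was made, and every comparison is between lists. The groups follow the sample titles. The strain field of the labels, however, gives CAST for all females and B6 for all males, against the titles of the B6 females and the CAST males. Per the methods, livers of different strain and sex were mixed in each set processed for chromatin. The study's sample sheet gives the B6 and the CAST livers different ChIP experiment numbers, and whether these mark separate experiments is not stated in the sources used here.

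The complement system is a cascade of plasma proteins, most of them secreted by hepatocytes, that tags and kills microbes. C3 is the central protein, which is split by convertases. Factor B (Cfb) supplies the protease of the alternative-pathway C3 convertase. C5, encoded in the mouse by Hc, is split next, and its larger fragment recruits C6, C7, C8 and C9 to form the membrane attack complex. C8 is built from the products of C8a, C8b and C8g, and C9 polymerizes into the pore. Complement activity in mice has long been known to differ between the sexes. The study itself singled out C6 from these livers, so its values are not independent evidence of a sex difference.

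The 4 lists held 79862 and 82181 peaks in B6 males and females, and 90228 and 84645 in their CAST counterparts. Summit coverage, the number of DNA fragments over the highest base of a peak, was recovered from the deposited fold enrichment and p-value as a whole number for 99.70% to 99.93% of peaks per list. The genome-wide background was 18.36, 18.70, 17.78 and 16.83 fragments per base in the same order of lists. The lowest summit coverage of any peak was 31 to 33 fragments, so weaker marks were not detectable at this depth. Over a high local background more fragments are needed, so a region without a call in a list may still be marked. A B6 male peak upstream of C3, with 149 fragments over a local background of 112.3, stood at only the 0.294th percentile of scores. Over genes that mark cell types, hepatocyte markers had 47769 to 56702 covered bases per list, and Kupffer cell markers 2721 to 3146, with no peak at Vsig4, Emr1 or Marco. Brain markers, most of which liver should lack, had 2692 to 2939 covered bases and no peak at Neurod6, Snap25 or Gria2. The log2 ratio of male to female covered bases was 0.18 in B6 and 0.17 in CAST for hepatocyte markers, 0.62 and 0.27 for cholangiocyte markers (no peak at Krt19 or Krt7), and 0.20 and 0.06 for sinusoidal endothelial markers. It was -0.05 and 0.49 for stellate cell, -0.14 and 0.35 for lymphocyte (no peak at Cd3e), and -0.20 and 0.09 for Kupffer cell markers. The part of these cell types in the values below was not tested, and in whole liver fewer cells of a type and less mark per cell cannot be told apart.

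Marked chromatin was found at 8 of the 9 genes in every list. C7 (ENSMUSG00000079105.2, 15:4938762-5013740, minus strand of the mm9 build), which binds C5b and C6 and anchors the growing complex in the membrane, had no peak in its window in any list. The windows together held 58 and 54 peaks in B6 males and females, and 69 and 58 in their CAST counterparts, which covered 51639, 45564, 52027 and 40486 bases. Promoter peaks, at most 2.5 kb from any annotated transcript start, numbered 26, 22, 27 and 20 in that order. Distal peaks numbered 32, 32, 42 and 38. Promoter peaks covered 26632 bases in B6 males and 23250 in B6 females, and 25255 in CAST males and 18042 in CAST females. Distal peaks covered 25007 and 22314 bases in B6 and 26772 and 22444 in CAST. Covered bases were thus fewer in the female list of each strain in both classes.

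**Figure D1:**
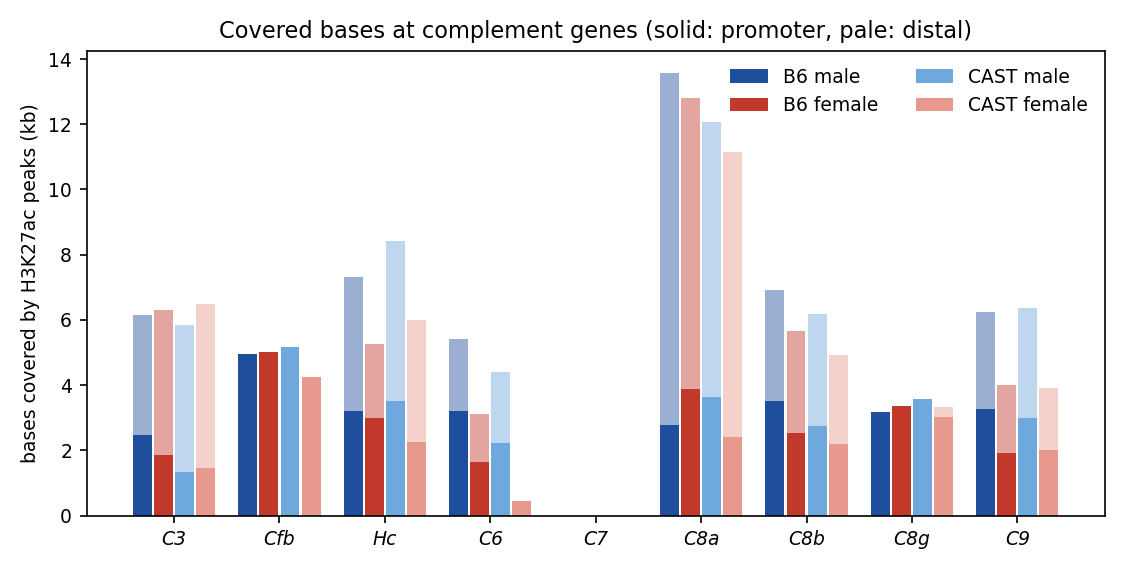
Bases covered by H3K27ac peaks (kb) in the window of each complement gene, 1 bar per list, with promoter bases solid and distal bases pale. C8a has the most covered bases (11136 to 13575), C7 has none, and the C6 bar of CAST females is the shortest of any gene with a peak (435 bases).

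Sex differences in covered bases passed 1.5-fold at the late-acting genes C6 and C9. Both had at least 1.5 times as many covered bases in males as in females in both strains, and no gene of the group passed that limit in females. These calls depend on the peaks counted. C9 lost its call in both strains with only peaks of a -log10 q-value of at least 10, and in CAST with equal list lengths (0.58 on the log2 scale) or gene bodies alone. With gene bodies alone C6 lost its B6 call, and in CAST it had under 2000 covered bases and was not measured. At that -log10 q-value, C3 and Hc passed the limit in CAST males. Among all protein-coding genes with at least 2000 covered bases in a list of the pair, males passed 1.5-fold in 4.36% of genes in B6 and 7.04% in CAST, and females in 2.29% and 1.15%. The counts of 2 of 8 measured complement genes per strain rest on few genes. The median log2 ratio of male to female covered bases over these 8 genes was 0.19 in B6 and 0.30 in CAST, against 0.05 and 0.12 over all genes measured. Without C6 and C9 the medians were 0.03 and 0.20, a comparison added after the values were seen. Covered bases were higher in males at 5 of 8 genes in B6 and at 7 of 8 in CAST, where 61.0% and 72.3% of all genes measured were, so the B6 count is that of genes in general.

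**Figure D2:**
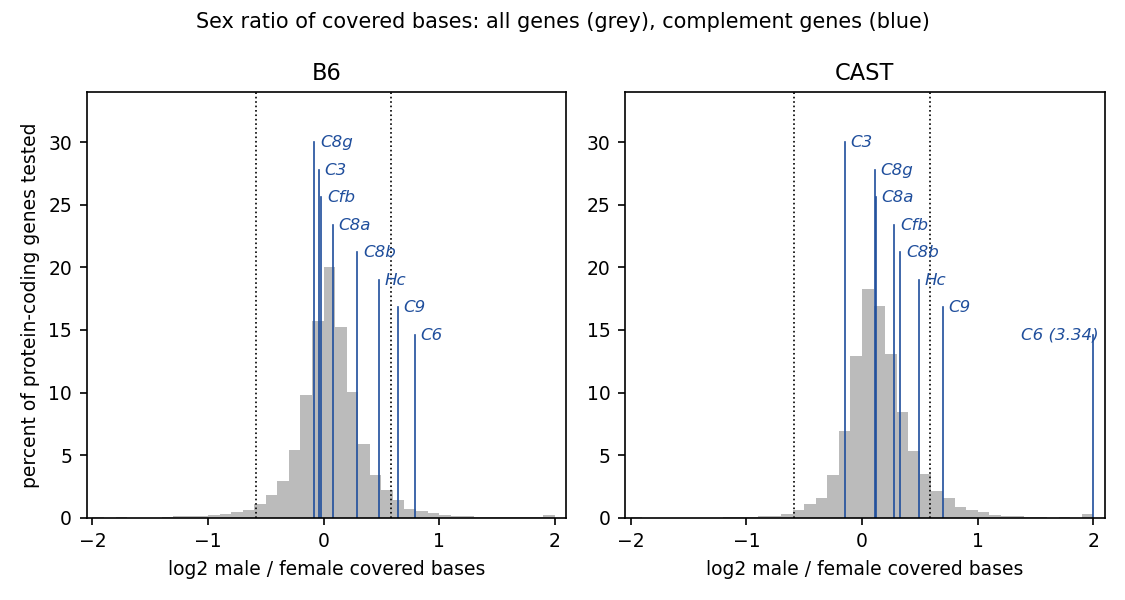
Distribution of the log2 ratio of male to female covered bases over all protein-coding genes with at least 2000 covered bases (grey, percent of genes, ratios past -2 or 2 placed in the end bins), with the complement genes as labelled lines and the 1.5-fold limits dotted. C6 and C9 lie past the male limit in B6 (0.79 and 0.64) and in CAST (3.34, drawn at the edge, and 0.70), and Hc lies just inside it. Under other choices of peaks or window the C9 call is lost in both strains and the C6 call in B6. With gene bodies alone C6 has under 2000 covered bases in CAST and no call there.

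C3 (ENSMUSG00000024164.8, 17:57343397-57367559, minus strand) had nearly equal covered bases in the sexes. Its window held 6139 and 6307 covered bases in B6 males and females, and 5844 and 6500 in their CAST counterparts. The male to female ratio was 0.973 in B6 and 0.899 in CAST, so both female lists had slightly more. In CAST this order turned with only peaks of a -log10 q-value of at least 10, which left 5048 covered bases in males and 1944 in females, and in B6 it turned with peaks touching the gene body alone, at 2222 and 1878. At its own start, the region 17:57365784-57367489 over coding exon and UTR was called in all lists. Summit coverage there was 263 and 274 fragments in B6 males and females, and 286 and 217 in their CAST counterparts. Relative to the genome-wide background of each list, the male to female ratio was 0.978 in B6 (95% counting interval 0.822 to 1.16) and 1.25 in CAST (1.04 to 1.5). All such intervals are exact binomial ones for the ratio or exact Poisson ones for a count, they cover counting error only, and PCR copies of a fragment are not independent molecules.

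The window of C3 also held the only region of the 91 at these genes that was called in the females and not in the males of both strains, a state of 1.23% of all regions. It lay at 17:57375135-57375613 in a coding exon of the neighbouring gene Gpr108, with 130 fragments in B6 females and 106 in CAST females. It was a weak call, at the 27.6th percentile of scores in the B6 female list and the 1.64th in the CAST female list. The region with the highest-ranked distal peak of this window, 17:57372720-57374748, also covers exons of Gpr108 and had 287, 252, 294 and 239 fragments in B6 males, B6 females, CAST males and CAST females. A region upstream of the C3 start, 17:57369617-57370416, was called in both CAST lists (193 fragments in males, 158 in females) and in no B6 list. At the 3′ end of C3, the distal region 17:57341002-57343861 had 120 fragments in CAST males and 76 in CAST females, a ratio of 1.49 (1.11 to 2.02), and 94 and 80 in B6, a ratio of 1.20 (0.879 to 1.63) whose interval includes no difference. Over the whole window, CAST had 5 female-only regions and no male-only one, whereas B6 had 2 of each. Those 5 were weak calls, between the 1.64th and 19.4th percentile of the CAST female list. With only peaks of a -log10 q-value of at least 10, CAST kept no female-only region at any of these genes. Genome-wide, CAST females alone held 14.1% of the called regions and CAST males alone 21.5%. No lean towards females and no strain contrast at C3 is drawn from so few weak calls.

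Cfb (ENSMUSG00000090231.2, 17:34993319-34999463, minus strand) lies in a dense stretch of the major histocompatibility complex, and its window overlaps C2, Gm20547, Rdbp and Skiv2l. It had 4947, 5025, 5163 and 4258 covered bases in B6 males, B6 females, CAST males and CAST females, all of them in promoter peaks. The region over its start, 17:34997417-35000520, runs into C2, the protease of the classical-pathway convertase, and the peaks cannot be assigned to either gene. Its summit coverage was 305, 288, 353 and 283 fragments in the same order. The male to female ratio was 1.08 (0.915 to 1.27) in B6, where the interval includes no difference, and 1.18 (1.01 to 1.39) in CAST. A neighbouring region over exons of Rdbp, 17:34987354-34988369, had 321, 279, 367 and 263 fragments. In every list its counting interval overlapped that of the start region, so no order of the regions is drawn. A region in a coding exon of Rdbp, 17:34990774-34991171, was called in B6 males (142 fragments) and B6 females (110) and in neither CAST list. A CAST male peak beside it, at 17:34991205-34991636, had a fold enrichment of only 1.37 at the 90.3rd percentile of scores, and its coverage could not be recovered.

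Hc (ENSMUSG00000026874.4, 2:34838851-34916958, minus strand), which encodes C5, leaned towards males in both strains without passing 1.5-fold. Covered bases were 7316 in B6 males and 5263 in B6 females, a ratio of 1.39, and 8409 in CAST males and 6001 in CAST females, a ratio of 1.40. With only peaks of a -log10 q-value of at least 10, the male and female lists had 5621 and 1781 covered bases in CAST, which is past the limit, but 4490 and 4504 in B6, where the lean was gone. With peaks touching the gene body alone, they had 3967 and 2690 in B6 and 4118 and 3864 in CAST. Of all genes, 7.12% had a ratio at least as high in B6 and 10.7% in CAST. The region over its start, 2:34915300-34917342, had 282 and 237 fragments in B6 males and females, and 281 and 186 in CAST. The ratios were 1.21 (1.02 to 1.45) and 1.43 (1.18 to 1.73), so neither interval includes equal coverage. Fold enrichment at this start was lower in males in B6 (2.67 and 2.90) and higher in CAST (2.72 and 2.34). Its highest-ranked distal region, 2:34924960-34926240, lies upstream between genes and had 140 fragments in B6 males against 91 in females (ratio 1.57, 1.19 to 2.06) and 112 against 69 in CAST (1.54, 1.13 to 2.11). Its fold enrichment was again lower in males in B6 (2.36 and 2.77) and higher in CAST (2.69 and 2.17). Downstream of the gene, 2:34832719-34833124 was called in males of both strains and in no female list, with 57 fragments in B6 and 66 in CAST, both below the middle of their lists (16.4th and 31.9th percentile). In an intron of Hc, 2:34893783-34894176 was called in both CAST lists (49 and 47 fragments) and in neither B6 list. The 20 regions of this gene included 10 that were called in a single list.

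C6 (ENSMUSG00000022181.9, 15:4677175-4765456, plus strand) is the component that joins C5b to start the membrane attack complex. With the 10 kb flanks it had the largest sex difference of the group in covered bases in both strains. In B6, its window held 5 peaks with 5412 covered bases in males and 3 peaks with 3131 in females. In CAST, the males had 7 peaks with 4412 bases, and the females 1 peak with 435. The male to female ratio was 1.73 in B6 and 10.1 in CAST, and 2.09% and 0.0639% of all genes had a ratio at least as high. The window contains no other annotated gene.

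The region over the C6 start, 15:4676316-4679267, which includes UTR sequence, was called in all lists, with very different coverage. Summit coverage was 286 fragments (254 to 321) and 84 (67.0 to 104) in B6 males and females, and 196 (170 to 225) and 51 (38.0 to 67.1) in their CAST counterparts. Male and female intervals did not overlap in either strain. The male to female ratio was 3.47 (2.71 to 4.48) in B6 and 3.64 (2.66 to 5.05) in CAST, so the ratios in the strains lay inside each other's intervals although the covered bases differed far more in CAST. The B6 male peak stood at the 92.4th percentile of its list and the CAST male peak at the 87.2nd, against the 70.2nd and 45.3rd in females. In B6 the male peaks ran from -859 to -297 and from 50 to 2092 bases relative to the gene start, and in CAST from -755 to -230, from 48 to 823 and from 1583 to 2022. The B6 female peak spanned the start without a gap, from -792 to 859, and the CAST female peak was limited to 176 to 610. A call on the gene body alone is therefore sensitive to this shape. Peaks that touch the gene body covered 2301 bases in B6 males and 2158 in B6 females, which is no longer 1.5-fold. In that setting the largest B6 log2 ratios were those of C9 (0.80) and Hc (0.56), against 0.09 at C6.

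**Figure D3:**
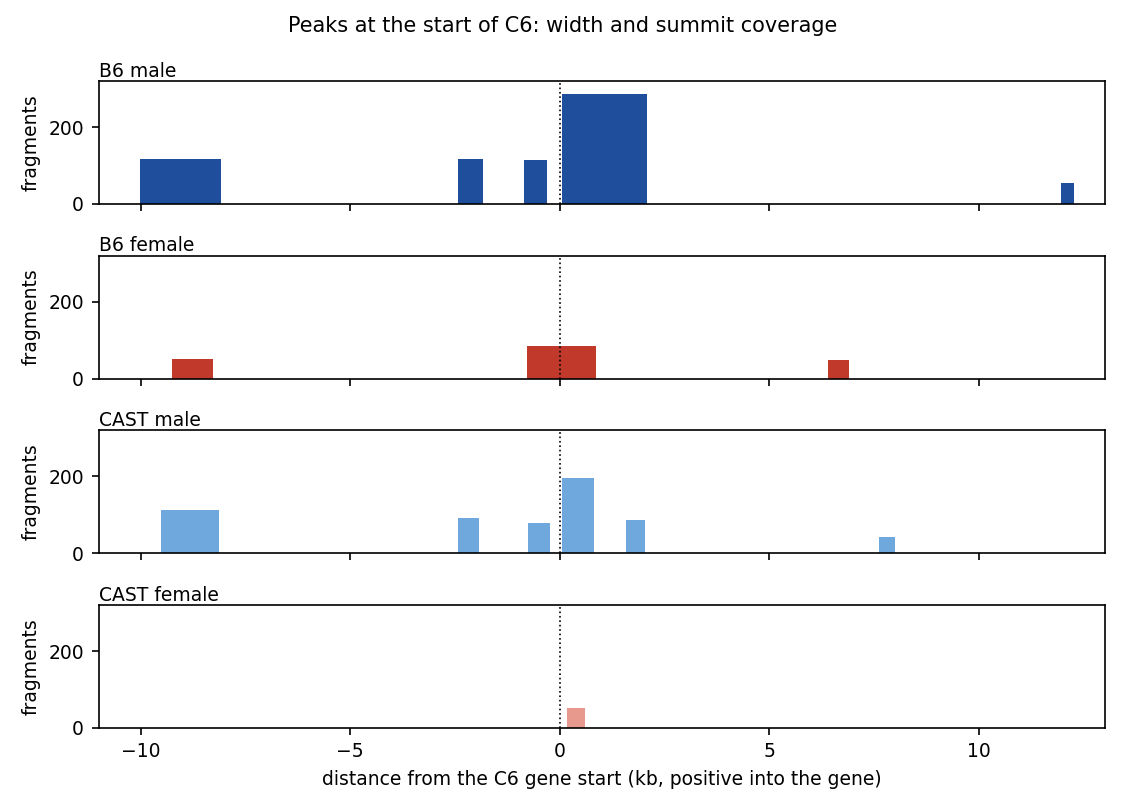
Peaks around the C6 start in each list, drawn from their first to their last base (distance from the gene start in kb, positive into the gene) at the height of their summit coverage in fragments. The peak just inside the gene reaches 286 and 196 fragments in B6 and CAST males, against 84 and 51 in females, and the upstream peaks are absent from the CAST female list. A CAST male peak beyond the 3′ end of the gene lies outside the plotted range.

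Upstream elements of C6 also differed by sex. The distal region 15:4667165-4669100, between genes and 8075 bases from the nearest C6 start, held the highest-ranked distal peak of C6. In B6 it had 117 fragments in males and 51 in females, and in CAST it had 113 in males and no call in females. The B6 ratio was 2.34 (1.67 to 3.31). Closer to the gene, 15:4674740-4675351 was called in males of both strains only, with 118 fragments in B6 and 91 in CAST, at the 55.1st and 53.5th percentiles. It was the highest-ranked of the 3 regions at these genes that were male-only in both strains. The remaining 4 regions of C6 were calls of a single list with 43 to 54 fragments, among them a B6 female call of 48 fragments over a coding exon (15:4683581-4684086).

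The reference sequence of the C6 promoter and of its upstream regions with more coverage in males is shown with that of the C9 and C8a promoters. C9 is the other gene past 1.5-fold in both strains, and C8a has a promoter called at high rank in all lists and whose upstream bases overlap no annotated exon. All are from the mm9 reference, which is the B6 genome, and CAST bases were not used. Promoters are the 250 bases before the gene start, read 5′ to 3′ on the strand of the gene, and the remaining windows are 300 bases around the B6 male summit. Capitals mark matches, on either strand, to TTCNNNGAA (STAT5), TTGCNNAA (C/EBP), GTTAATNAT (HNF1), CAAAGTCCA (HNF4A), TGTTTAC (FOXA), ATTGAT (HNF6) or GGNNNTTCC (NF-kB), the core letters of factors known in liver gene control.
C6 promoter, 15:4676925-4677174, plus strand: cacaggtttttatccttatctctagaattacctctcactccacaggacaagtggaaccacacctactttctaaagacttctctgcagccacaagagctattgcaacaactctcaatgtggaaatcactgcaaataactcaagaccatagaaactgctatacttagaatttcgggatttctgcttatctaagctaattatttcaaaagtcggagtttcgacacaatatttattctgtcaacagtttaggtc
C6 region called in males only, 15:4674729-4675028, plus strand: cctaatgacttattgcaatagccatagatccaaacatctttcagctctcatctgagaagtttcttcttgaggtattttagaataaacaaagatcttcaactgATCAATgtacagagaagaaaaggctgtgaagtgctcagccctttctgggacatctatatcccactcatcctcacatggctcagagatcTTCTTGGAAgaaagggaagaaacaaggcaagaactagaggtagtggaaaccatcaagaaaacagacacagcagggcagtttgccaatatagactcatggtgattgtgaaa
C6 upstream distal region, 15:4668544-4668843, plus strand: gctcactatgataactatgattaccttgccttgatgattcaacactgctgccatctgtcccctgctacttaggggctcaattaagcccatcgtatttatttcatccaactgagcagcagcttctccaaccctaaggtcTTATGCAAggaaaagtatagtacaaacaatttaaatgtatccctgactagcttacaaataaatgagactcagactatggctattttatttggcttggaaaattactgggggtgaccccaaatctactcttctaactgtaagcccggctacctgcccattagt
C9 promoter, 15:6395077-6395326, plus strand: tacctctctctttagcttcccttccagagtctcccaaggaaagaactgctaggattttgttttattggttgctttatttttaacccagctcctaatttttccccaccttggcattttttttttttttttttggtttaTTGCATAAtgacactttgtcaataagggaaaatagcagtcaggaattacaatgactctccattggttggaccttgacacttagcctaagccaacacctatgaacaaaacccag
C8a promoter, 4:104549004-104549253, minus strand: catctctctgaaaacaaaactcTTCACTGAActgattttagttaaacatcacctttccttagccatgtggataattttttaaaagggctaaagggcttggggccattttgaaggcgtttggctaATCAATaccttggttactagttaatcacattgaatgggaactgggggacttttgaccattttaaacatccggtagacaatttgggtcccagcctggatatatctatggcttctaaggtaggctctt

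The C6 promoter held none of the 7 motifs in this window, which lies wholly in the B6 and mostly in the CAST gap between the male peaks and wholly within the B6 female peak. The male-only region of C6 held the HNF6 letters (on the minus strand) before the B6 male summit and a STAT5 match, TTCTTGGAA, after it. In 300-base windows at the summits of all 119346 regions with known sequence, 8.11% held the HNF6 letters and 8.96% the STAT5 letters. The upstream distal region held a C/EBP match, found in 11.5% of those windows. The C9 promoter held the C/EBP letters as TTGCATAA, 113 bases before the start, as did 9.17% of 22345 promoters of the same length. In the C8a promoter, TTCACTGAA matched STAT5 and a second match was to HNF6, with shares of 6.83% and 6.56% over all promoters. No match overlapped another. Matches are letters only and show no binding.

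C8a (ENSMUSG00000035031.9, 4:104488284-104549003, minus strand), whose product inserts into the membrane, had the most marked chromatin of the group. Covered bases were 13575 and 12812 in B6 males and females, and 12073 and 11136 in their CAST counterparts, more than at 96.2% to 97.2% of protein-coding genes. The sexes differed little, with ratios of 1.06 and 1.08, and in B6 the order turned (11527 and 12812) when only bases inside the window were counted. The region over its start, 4:104546801-104550018, had 260, 217, 267 and 240 fragments in the same order, and ratios of 1.22 (1.02 to 1.47) in B6 and 1.05 (0.881 to 1.26) in CAST. Fold enrichment at the C8a start was lower in males, at 3.69 and 3.86 in B6 and 3.79 and 4.44 in CAST. Most of its covered bases were distal, 8424 to 10780 per list, in introns and at the 3′ end. The intronic region 4:104495319-104497356 held the highest-ranked distal peak, with 279, 239, 280 and 242 fragments. At the 3′ end, 4:104489442-104491703 had 270 fragments in CAST males and 153 in CAST females, a ratio of 1.67 (1.36 to 2.05). In B6 it had 226 in males and 255 in females, a ratio of 0.903 (0.751 to 1.08) whose interval includes no difference. An intronic region near an internal start, 4:104526961-104527396, was male-only in both strains with 42 and 47 fragments, close to the lowest coverage called. Another intronic region, 4:104541793-104542300, was called in both CAST lists (94 and 81 fragments) and in no B6 list.

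C8b (ENSMUSG00000029656.7, 4:104438922-104477153, plus strand) is the neighbour of C8a, and the distal region 4:104476236-104478309 falls in both windows. Covered bases were 6908, 5658, 6169 and 4912 in B6 males, B6 females, CAST males and CAST females, with ratios of 1.22 and 1.26. The region over its start, 4:104438212-104441416, had 248 and 199 fragments in B6 males and females (ratio 1.27, 1.05 to 1.54) and 290 and 212 in CAST (1.29, 1.08 to 1.55). The highest-ranked distal region, in an intron at 4:104451460-104452167, had 169, 145, 180 and 133 fragments. An upstream region at 4:104436723-104437353 was called in B6 males (147 fragments) and females (126) and in neither CAST list.

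C8g (ENSMUSG00000015083.5, 2:25354171-25357239, minus strand), which encodes the lipocalin-like C8 subunit, is the shortest gene of the group. Its 3185 to 3579 covered bases are nearly all promoter bases, and the region over its start, 2:25354279-25357313, also covers exons of Fbxw5. That region had the highest start coverage of the group, with 354 and 346 fragments in B6 males and females, and 424 and 315 in their CAST counterparts. The ratio was 1.04 (0.896 to 1.21) in B6 and 1.27 (1.10 to 1.48) in CAST. Its single distal region, 2:25365599-25365896, was called in CAST females alone with 49 fragments.

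C9 (ENSMUSG00000022149.9, 15:6395327-6448744, plus strand) was the other gene past 1.5-fold in covered bases in males of both strains. Covered bases were 6231 in B6 males and 4000 in B6 females, a ratio of 1.56, and 6378 in CAST males and 3924 in CAST females, a ratio of 1.63. These ratios were matched or passed by 3.50% and 4.57% of genes. The region at its start, 15:6395381-6397657, had 253 and 172 fragments in B6 (ratio 1.5, 1.23 to 1.83, just short of the limit) and 279 and 178 in CAST (1.48, 1.22 to 1.80). By fold enrichment the order at this start was the opposite, with 2.08 and 2.17 in B6 and 2.22 and 2.28 in CAST, as the local background was also higher in males (121.1 and 78.7 fragments in B6, 125.4 and 77.4 in CAST). The region next to it upstream, 15:6394336-6395089, had ratios of 1.49 (1.20 to 1.85) and 1.72 (1.37 to 2.18). Its highest-ranked distal region, 15:6388930-6390032, lies over the UTR of Dab2 and had 220 and 193 fragments in B6 and 262 and 155 in CAST. Weak calls added to the covered bases of males, since B6 had 5 male-only regions and no female-only one. Those 5 had 39 to 50 fragments, lay between the 5.61th and 31.8th percentile, and shared no base with a CAST peak. CAST male-only calls lay close by, at 15:6433696-6433978 beside 15:6433439-6433675 and at 15:6451139-6451590 beside 15:6450733-6451072. A CAST female-only call, 15:6420923-6421171, lay near 15:6420475-6420759. CAST had 5 male-only regions and 1 female-only one, with 33 to 41 fragments except for the male-only 15:6392084-6392370, which had 196. With only peaks of a -log10 q-value of at least 10, covered bases were 3515 and 3509 in B6 and 4039 and 3349 in CAST, and the ratio was no longer past 1.5-fold in either strain. With peaks touching the gene body alone, the CAST lists had 3972 and 2687 covered bases, which is also short of the limit.

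**Figure D4:**
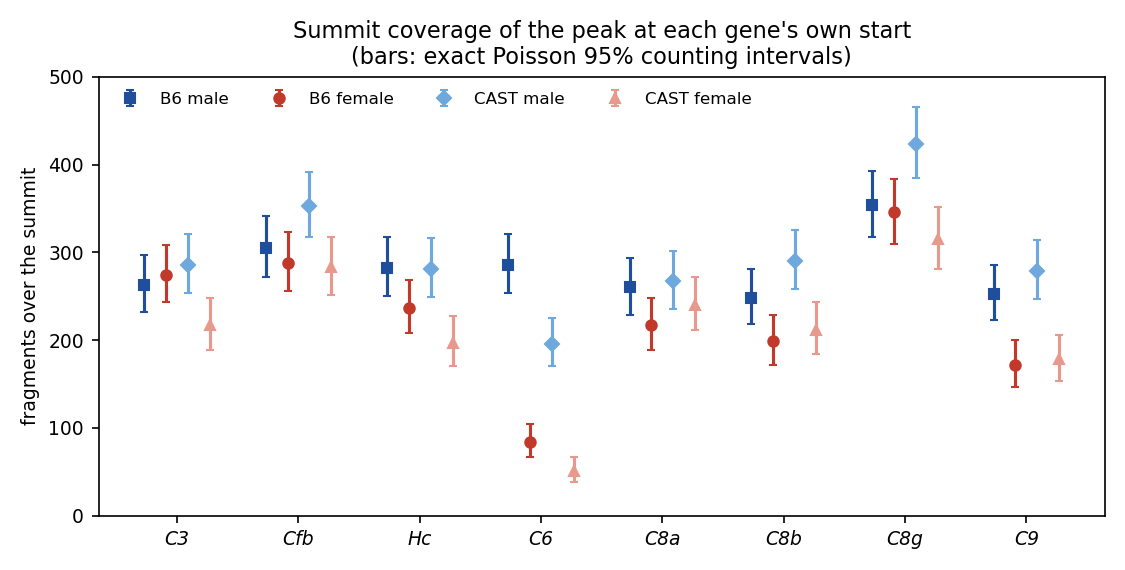
Fragments over the summit of the highest-ranked peak within 2.5 kb of each gene's own start, with exact Poisson 95% counting intervals. C6 shows the widest separation of males from females (286 and 196 against 84 and 51 fragments), and C9 follows with 253 and 279 against 172 and 178. For Hc in CAST females the plotted peak (197 fragments) lies in the region upstream of the start.

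Coverage and fold enrichment ranked the sexes differently at these genes. Of the regions called in both sexes, 36 in each strain, summit coverage relative to the genome-wide background was higher in males at 32 in B6 and 33 in CAST. The median log2 ratio was 0.25 in B6 and 0.35 in CAST, against 0.04 and 0.16 over all regions called in both sexes. In males, 4 of these regions in B6 and 6 in CAST passed 1.5-fold, and in females none did in either strain. Over all regions the shares past 1.5-fold in males were 2.96% in B6 and 5.13% in CAST, and in females 1.62% and 1.39%. By the deposited fold enrichment of the same peaks, however, males were higher at only 12 of 36 regions in B6 and 19 of 36 in CAST, and the medians were -0.12 and 0.01, against -0.01 and 0.07 over all regions. On that scale 0 of the 36 regions in B6 and 1 in CAST passed 1.5-fold in males, and 0 in females of each strain. The fold divides coverage by a local background, and this background was itself higher in males at 33 regions in B6 and 35 in CAST. Its median log2 ratio was 0.41 in B6 and 0.36 in CAST, against 0.03 and 0.07 over all regions. At the C6 start it was 56.5 fragments in B6 males and 20.2 in B6 females, and 39.2 and 16.8 in CAST. The fold enrichments there were therefore closer together than the coverage, at 4.99 and 4.01 in B6 and 4.90 and 2.92 in CAST. At the other gene starts, the local background was 2.97 to 7.05 times the genome-wide value. The authors describe input DNA as the background. Across the peaks of a list, 79763 to 89957 of them, the local background was higher where summit coverage was higher (Spearman's rho 0.82 to 0.83, a description across peaks of the same library). Whether input or ChIP reads set the local value was not tested, and the fold enrichments and local backgrounds printed here carry that doubt.

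**Figure D5:**
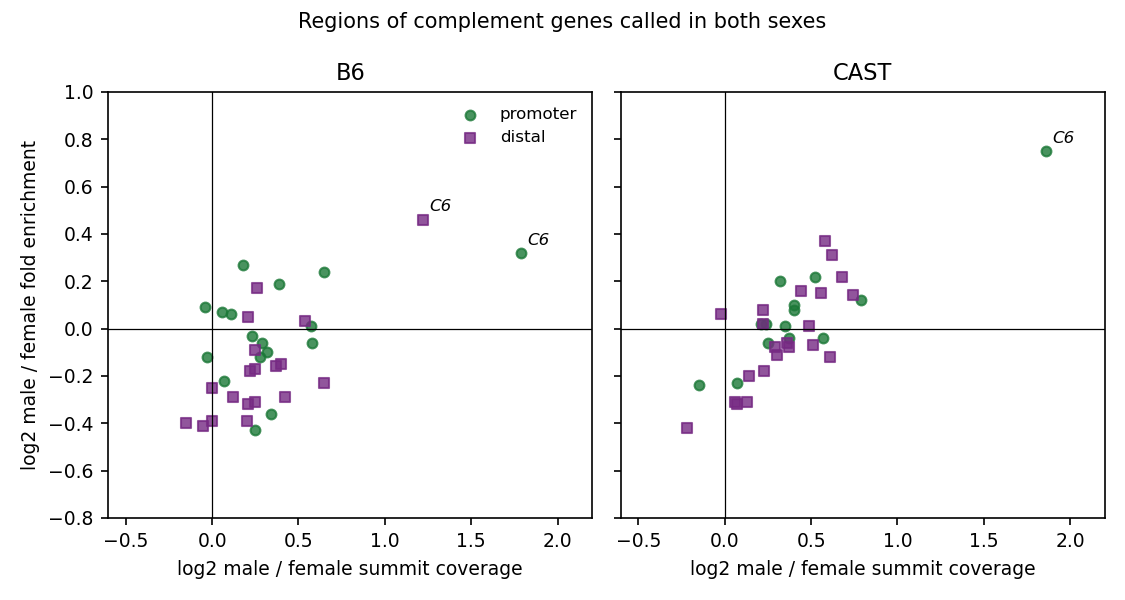
Log2 male to female ratio of summit coverage (x axis) against that of the deposited fold enrichment (y axis) for the 36 regions per strain called in both sexes, promoter regions as circles and distal ones as squares. Most points lie right of 0 on the coverage axis (32 in B6, 33 in CAST) but are spread around 0 on the fold axis, and the C6 regions lie furthest right.

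Peaks of all lists merged into 91 regions at these genes, 32 promoter and 59 distal, out of 119348 in the genome. In B6, 15 of 60 called regions were male-only (25.0%, against 17.4% of all regions) and 9 were female-only (15.0%, against 17.5%). Sex-only regions were therefore 40.0% of the total (95% Wilson interval 28.6 to 52.6), and the share of 34.9% over all regions lies inside that interval. In CAST, 24 of 75 were male-only (32.0%, against 21.5%) and 15 of 75 female-only (against 14.1%). The sex-only share was 52.0% (40.9 to 62.9), above the 35.5% of all regions. Male-only calls outnumbered female-only ones over all CAST regions as well, at 20773 against 13600. Neighbouring regions of a gene share a locus and are not independent, so the intervals are narrower than the true uncertainty. With only peaks of a -log10 q-value of at least 10, 11 regions were male-only and 0 female-only of 33 in CAST (33.3%, against 25.3% of all regions). In B6, 6 were male-only and 4 female-only of 32 (31.2%, against 23.9%). Among promoter regions alone, 12 of 26 were sex-only in CAST (46.2%, 28.8 to 64.5) and 8 of 25 in B6 (32.0%, 17.2 to 51.6), against 19.4% and 19.1% of all promoter regions, of which only the CAST value lies outside its interval. Among distal regions, 27 of 49 were sex-only in CAST (55.1%, 41.3 to 68.1) and 16 of 35 in B6 (45.7%, 30.5 to 61.8), against 41.3% and 40.7% of all distal regions. Regions called in males only in both strains numbered 3 of 91, at C6, Hc and C8a, and 3 of 91 were called in opposite sexes in the strains, 1 in the Cfb window and 2 in C8a. Both counts lie near the shares of all regions, 2.35% and 2.58%.

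Regions called in all 4 lists made up 33.0% (30 of 91, 24.2 to 43.1), an interval that includes the 40.4% of the genome. Regions of a single list made up 46.2% (42 of 91, 36.3 to 56.3), against 32.4%. The median width of the regions called in all lists was 1322 bases. C8a had the most regions called in all lists, 9 of 19, and C9 the most calls of a single list, 11 of 16. Strain-only regions, called in males and females of 1 strain and absent from both lists of the other strain, were few. B6 had 2 of 36 (5.56%, against 8.40% of all regions) and CAST had 3 of 36 (8.33%, against 11.8%), all of them given above.

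Between strains, covered bases differed by 1.5-fold at a single gene of the group. In males no gene passed the limit in either direction, where 8.67% of all genes were at least 1.5-fold higher in CAST and 4.02% in B6. In females only C6 did, with 3131 covered bases in B6 and 435 in CAST, which is 7.20-fold higher in B6. Over all genes, females were at least 1.5-fold higher in CAST at 8.55% and in B6 at 8.94%. The summit coverage at the C6 start was nearer between the female lists, 84 and 51 fragments, or 4.49 and 3.03 times the genome-wide background of their lists. The median log2 ratio of CAST to B6 over the 8 genes was -0.02 in males and -0.11 in females, against 0.02 and -0.05 over all genes. Its sign in males changed with the window and the threshold, so no direction is drawn from it.

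No other listed complement gene passed 1.5-fold in both strains. Of 39 listed genes (recognition, convertase, regulator and receptor genes), 38 were matched in the annotation and 27 had enough covered bases in each strain. In CAST, males were at least 1.5-fold higher at 4 of them, C1ra, C1rb, C1s and Cd59b, a share to be read against 7.04% of all genes. Females were at least 1.5-fold higher at 0 in each strain. The windows of C1ra, C1rb and C1s, the proteases of the C1 complex, overlap, so their counts are not separate. C1s, the largest of these ratios, had 3818 covered bases in CAST males and 1389 in CAST females, and 3995 and 2881 in B6. In B6 the ratio was 1.39 at C1s, 1.06 at C1rb, 0.992 at C1ra and 0.802 at Cd59b, so the last of these was higher in females there. These 4 genes were named after their values were seen. The median log2 ratios of 0.14 in B6 and 0.20 in CAST lay near those of all genes, 0.05 and 0.12. No covered base was found at 6 of the genes in each strain, among them C1qa, C1qb and C1qc, which macrophages express.

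The genes whose covered bases over the 4 lists were most like those of C6, by Euclidean distance of log2 values with 1000 bases added, were Lingo2 (distance 0.557), Tmem221 (0.683) and Cdh10 (0.708). Lingo2 had 6701, 4780, 4555 and 505 covered bases in B6 males, B6 females, CAST males and CAST females. Tmem221 had 3485, 3724, 3093 and 464, and Cdh10 4513, 3234, 2456 and 629. All share with C6 a low value in the CAST female list, and only Tmem221 lacked the higher value in B6 males. The likeness rests on 4 values per gene.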

How the data were processed

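H3K27ac ChIP-seq of mouse liver was analysed from 4 peak lists. Per the study's methods, the authors pooled the 5 livers of a group, aligned B6 reads to mm9 and CAST reads to a CAST genome with Bowtie2, kept unique reads, called peaks with MACS2 over input DNA, removed blacklisted regions and converted CAST coordinates to mm9. The labels' processing notes name Bowtie2, MACS2 and mm9 without versions. For each peak the deposited columns give a score, the fold enrichment (a ratio), the −log10 of its p-value and q-value, and the offset of its summit. The score was ranked within its list. Coordinates are 1-based on mm9 (NCBIM37, GENCODE vM1).

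From each list, Python 3.11.15 (scipy 1.17.1, statsmodels 0.14.6) solved the fold and p-value of a peak for a whole summit coverage and a local background, within 0.001 of the −log10 p-value. The solver recovered 100% of 1936 simulated peaks. Overlapping peaks were merged into regions. A peak counted with all its bases in any window it touched. Because lists are pooled, ratios are descriptions with no test. Promoter means within 2.5 kb of a start. A region is called in a list that has a peak in it, and the call of a gene means a ratio of at least 1.5-fold.

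The members, gene lists and motifs were chosen with earlier results of these data known. All 9 genes are named, with their start regions, highest-ranked distal regions, and regions called in 1 sex in both strains or in 1 strain only. Alternatives were flanks of 0 and 50 kb, equal list lengths, a −log10 q-value of at least 10, other region rules and other promoter rules. A gene of the wider complement list, and a count that needs it, are not reported here.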

Additional observations from a re-analysis of the deposited data

Results flagged for a closer look

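At these genes 3 of 91 regions were called in opposite sexes in the strains, a share near the 2.58% of all regions, and their difference was not tested. In the Cfb window, 17:34990227-34990507, in a coding exon of Rdbp, was called in B6 males (149 fragments) and CAST females (116). In an intron of C8a, 4:104491946-104492255 was called in B6 females (189) and CAST males (233), and 4:104530169-104530691 in B6 females (45) and CAST males (48), the latter pair close to the lowest coverage called.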

How the results depend on the processing

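No paired analysis was possible because each deposited list pools the 5 livers of a group, and for the same reason no liver could be left out. Of 68 recomputed values for the main comparisons, 45 kept their direction and stayed within the limits set (counts within 1.5 times, medians within 0.1 on the log2 scale, shares inside the main 95% interval). With a -log10 q-value of at least 10, the sex-only share in CAST was 33.3% (25.3% of all regions) and the share called in all lists 54.3% (52.0%), strain-only regions numbered 0, the median male to female log2 ratio was 0.00 in B6, 1 gene was past 1.5-fold in B6 males, and the CAST to B6 medians were 0.16 in males and -0.23 in females. Fewer peaks enter that setting, in which C6 kept 2647 covered bases in CAST males and none in CAST females, so it has no ratio. With gene bodies only, 1 gene was past 1.5-fold in B6 males and 0 in CAST males (C6 then had under 2000 covered bases in CAST, and C9 stood at 0.56 on the log2 scale), strain-only regions numbered 2, and the CAST to B6 median in males was 0.01. That median was 0.03 with a 50 kb flank, -0.17 at equal list lengths and 0.05 with bases inside the window only. At equal list lengths 1 gene was past 1.5-fold in CAST males, since C9 stood at 0.58 on the log2 scale. Where a list had to cover 50% of a region, the CAST sex-only share was 63.0% (45.0% of all regions) and strain-only regions numbered 2; with peaks up to 500 bp apart joined, they numbered 3. Promoter peaks in CAST females numbered 13 within 1 kb of a start. Comparisons added after the values were seen gave medians of 0.03 in B6 and 0.20 in CAST without C6 and C9, and, by fold enrichment in place of coverage at regions called in both sexes, -0.12 in B6 and 0.01 in CAST. Except where a value above shows it, the cause was not tested. Depth sets a floor of 31 to 33 fragments, below which no mark can be seen. The floor is higher where the local background is high, so a region without a call in a list may still be marked.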
